A study of Homo sapiens with 9 samples.

Results

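Of 30113 probes with 1 gene symbol on an Illumina expression array of 47323 probes, 12545 were silent in OVISE ovarian carcinoma cells given vehicle, and 14 of those were detected on every array after wild-type ARID1A was switched on. Silent meant a detection p of 0.05 or more on all 3 DMSO arrays, and detected meant a detection p below 0.01 on all 3 ARID1A arrays. The detection p is the scanner software's rank of a probe's brightness among negative controls. Leaving out ARID1A itself and the 5 genes GALNT16, CA12, ESPN, KRT13 and IL1B, the set holds 8 probes of 8 genes on 7 chromosomes: ADH1A, CLDN2, DENND2A, MB, PIGR, PROM1, SCNN1G and SEMA5B. Because these values chose the genes, their levels in ARID1A and DMSO cells are given as a description with no test, and the GSK126 arrays are the readout that did not take part in the choice. None of the 8 probes was detected at 0.01 on any GSK126 array. Of the 12537 other silent probes 8 were (0.0638%), so this does not set the members apart. At 0.05, 2 of the 24 member values on GSK126 arrays (8.33%) were detected, against 2.66% for the other silent probes. GSK126 minus DMSO ran from −0.31 to 0.34 on the log2 scale, 4 positive and 4 negative.

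ARID1A is the large DNA-binding subunit of the BAF form of the SWI/SNF complex, which moves and ejects nucleosomes and so opens enhancers and promoters. EZH2 is the methyltransferase of Polycomb repressive complex PRC2, which places the trimethyl mark on lysine 27 of histone H3 at genes kept off, and SWI/SNF and PRC2 are known to oppose each other at many genes. Clear cell carcinoma of the ovary often carries inactivating ARID1A mutations, and GSK126 is a small-molecule inhibitor of EZH2 that competes with its methyl donor. The study set the response to restored ARID1A beside that to EZH2 inhibition in OVISE cells.

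All cells were OVISE, a clear cell ovarian carcinoma line with mutated ARID1A, grown in 3D in Matrigel, a basement membrane extract. The ARID1A group received 1 µg/mL doxycycline to induce the wild-type gene, the GSK126 group 5 µM of the inhibitor and the DMSO group the vehicle, with 3 arrays each and replicates 1, 2 and 3 of every group from labelled batches 1, 2 and 3. The labels name doxycycline for the ARID1A group alone, so its own effect and that of ARID1A cannot be told apart, and they do not say whether GSK126 and DMSO cells carried the inducible gene, how many clones did or whether replicates were separate cultures, so that the p-values may cover technical spread alone. Each array had 21317 to 22517 probes above background, meaning a detection p below 0.05, and precision is limited by the 3 arrays in each group. The inducible gene was seen on 1 of the 2 ARID1A probes. Probe ILMN_1734496 had raw intensities of 620.6, 581.4 and 733.3 on ARID1A arrays, against 206.9 to 230.7 on GSK126 arrays and 210.7 to 270.1 on DMSO arrays, where it was not above background. Probe ILMN_1797341 lay between 1898.5 and 2412.9 on all 9 arrays. Of 7 carcinoma epithelium markers 6 were above background on all 9 arrays (not the probe of KRT18), as were 5 of 5 clear cell markers. Of 5 leukocyte markers 2 were above background on all 9 arrays and LYZ on 7, while PTPRC and CD3E were on none. Of 5 fibroblast markers COL1A1 was above background on 1 array and DCN on 2, and COL3A1, LUM and PDGFRB on none. Of 5 endothelial markers PECAM1, CDH5, KDR and TEK were on none and VWF on the 3 ARID1A arrays, and of 4 neuronal markers 2 were on all 9, SNAP25 on 4 and SYP on none. The summed normalised intensity of the epithelium markers was 238544 to 263322 on ARID1A arrays, 208946 to 211706 on GSK126 arrays and 212427 to 220223 on DMSO arrays, and its part in the results below was not tested. In such bulk samples, fewer cells of a type and less RNA per cell cannot be told apart.

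The promoters of these genes differed widely in base composition. RefSeq windows of 300 bases on GRCh38.p14, 250 before and 50 after a transcription start, were at hand for 7 of the 8 genes (not SCNN1G), and the first start listed for each gene was read. Which start these cells used is not known from an array. CpG observed over expected, the number of CG pairs relative to that implied by the C and G content, had a median of 0.232 over the 7 windows, and 5 of them lay below 0.6. Over all 27305 windows in the table the median was 0.58, and 51.0% lay below 0.6. The 7 genes had 17 listed starts, over which the value ran from 0.061 to 0.923, and DENND2A, PROM1 and SEMA5B each had starts on either side of 0.6. No comparison with the genes tested on the array or with the other genes silent in DMSO is given, because 10154 of 12699 and 4630 of 6990 had a window, below 80% of each, so nothing particular to the set is read from these values.

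The windows of the 2 genes with the lowest and the 2 with the highest CpG observed over expected are shown to let the contrast be read from the bases. CLDN2 (0.061) and ADH1A (0.11) each have 1 CG pair, while PROM1 (0.679) has 18 and DENND2A (0.923) has 39. Capitals mark matches to 5 motifs searched on both strands, namely the E-box CACCTG bound by ZEB and SNAI repressors, TGANTCA of AP-1, GGAATG of TEAD factors, TATAAA of the TATA box and AACCNGTT of GRHL factors. Sequences run 5′ to 3′ on the strand of the gene.
CLDN2, chrX:106899914-106900213, plus strand: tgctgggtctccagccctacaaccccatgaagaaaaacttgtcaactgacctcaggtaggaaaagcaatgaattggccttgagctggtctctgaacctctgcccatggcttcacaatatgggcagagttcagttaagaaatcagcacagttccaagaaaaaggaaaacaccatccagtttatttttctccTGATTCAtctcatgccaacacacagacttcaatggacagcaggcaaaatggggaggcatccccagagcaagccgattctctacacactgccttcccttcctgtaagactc
ADH1A, chr4:99290936-99291235, minus strand: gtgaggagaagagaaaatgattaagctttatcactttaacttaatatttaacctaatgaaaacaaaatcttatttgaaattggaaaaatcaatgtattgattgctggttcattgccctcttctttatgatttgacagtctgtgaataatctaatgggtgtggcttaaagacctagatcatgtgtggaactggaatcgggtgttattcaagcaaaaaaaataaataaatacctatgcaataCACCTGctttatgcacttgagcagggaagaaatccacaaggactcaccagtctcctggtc
PROM1, chr4:16083974-16084273, minus strand: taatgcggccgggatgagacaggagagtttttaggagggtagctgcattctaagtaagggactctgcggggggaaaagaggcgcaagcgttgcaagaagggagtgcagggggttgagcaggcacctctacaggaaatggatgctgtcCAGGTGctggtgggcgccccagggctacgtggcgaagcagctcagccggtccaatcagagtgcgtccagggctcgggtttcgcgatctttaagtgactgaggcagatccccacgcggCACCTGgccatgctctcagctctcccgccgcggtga
DENND2A, chr7:140640764-140641063, minus strand: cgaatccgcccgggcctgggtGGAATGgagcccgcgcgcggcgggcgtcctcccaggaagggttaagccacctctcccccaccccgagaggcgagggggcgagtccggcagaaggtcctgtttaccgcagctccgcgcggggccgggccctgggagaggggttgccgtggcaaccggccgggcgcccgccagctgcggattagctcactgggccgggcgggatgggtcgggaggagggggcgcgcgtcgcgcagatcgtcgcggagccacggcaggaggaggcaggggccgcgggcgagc

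The E-box was present in 4 of the 7 windows, those of ADH1A, MB, PIGR and PROM1, the last with 2 matches, and in 20.6% of all windows. TGANTCA was found in the CLDN2 window and in 7.76% of all windows, and GGAATG in the DENND2A window and in 14.05% of all windows. TATAAA and AACCNGTT were in none of the 7, against 11.95% and 1.73% of all windows. No 2 matches in these windows overlapped. A match describes letters and not a bound site, and no match says only that these letters are not in this window.

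**Figure D1:**
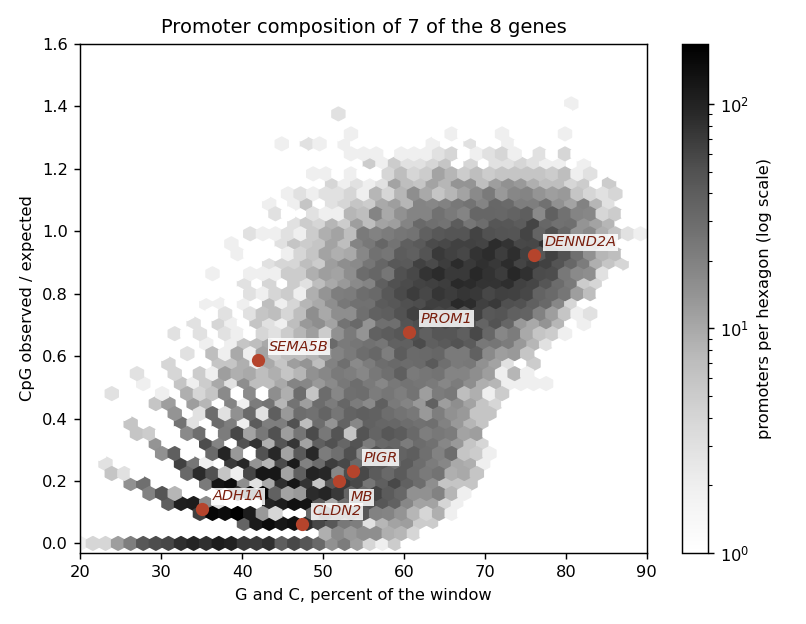
Base composition of the promoter windows. The x axis is the percentage of G and C in the 300-base window, the y axis CpG observed over expected, red points the 7 genes, and the grey scale the number of all promoters per hexagon. ADH1A, CLDN2, MB and PIGR sit at 0.232 or below. DENND2A, at percentile 83.3 of all promoters on the y axis, lies among the CpG-rich ones, and PROM1, at 56.1, near their middle.

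Values below are normalised log2 intensities, after background correction and quantile normalisation, and differences are log2 fold changes. A level is read within a probe and never against another probe. On each array the dimmest probe with a detection p below 0.05 sets a floor, which lay between 6.68 and 6.84. Where the dimmer group was not above background, the fold is given as a bound, the ARID1A mean against the other group's mean with each array raised to its floor. Such bounds make no allowance for the spread between arrays. Arrays are given in the order of replicates 1, 2 and 3.

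The genes with the clearest place in epithelial transport were CLDN2, SCNN1G and PIGR. CLDN2 encodes claudin-2, a tight junction protein that forms a paracellular pore for cations and water in leaky epithelia. It read 8.06, 7.83 and 8.16 on ARID1A arrays, 6.11, 6.09 and 5.80 on GSK126 arrays, and 6.26, 5.66 and 5.94 on DMSO arrays. The 3 GSK126 values lay within the range of the DMSO values, and all 6 were under the floor. Its level with ARID1A was at least 2.39-fold that in DMSO and at least 2.41-fold that with GSK126.

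SCNN1G encodes the gamma subunit of the epithelial sodium channel ENaC, which takes up sodium in kidney collecting duct, distal colon and airway. It read 8.39, 8.19 and 9.19 on ARID1A arrays, 6.51, 5.93 and 6.30 on GSK126 arrays, and 6.46, 6.65 and 6.19 on DMSO arrays. Replicate 3 of ARID1A stood highest, and GSK126 and DMSO values overlapped. The bounds were at least 3.55-fold over DMSO and at least 3.57-fold over GSK126. A second probe of the gene, ILMN_2153837, read 8.75, 8.97 and 9.54 on ARID1A arrays, 6.95, 6.33 and 6.35 on GSK126 arrays, and 6.73, 6.64 and 6.88 on DMSO arrays. It missed the rule because DMSO replicate 3 had a detection p of 0.0377, and it was also above background on 1 GSK126 array. Its difference between ARID1A and DMSO was 2.34 (SE 0.22), a description of the contrast that the rule used.

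PIGR encodes the polymeric immunoglobulin receptor, which carries IgA and IgM across secretory epithelium. It read 7.60, 7.56 and 8.05 on ARID1A arrays, 6.93, 6.10 and 6.23 on GSK126 arrays, and 6.19, 6.10 and 6.28 on DMSO arrays. GSK126 replicate 1, with a detection p of 0.0351, was above the floor, and the other two GSK126 arrays were near the DMSO values. This was the smallest bound of the set over DMSO, at least 1.97-fold, and over GSK126, measured on 1 of 3 arrays, it was at least 1.91-fold.

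PROM1 encodes prominin-1 (CD133), a cholesterol-binding membrane glycoprotein of microvilli and other protrusions that is used as a marker of stem-like cells. It read 8.17, 7.74 and 8.70 on ARID1A arrays, 6.13, 6.18 and 6.21 on GSK126 arrays, and 6.07, 6.14 and 6.61 on DMSO arrays. The 3 GSK126 arrays lay close together inside the DMSO range, and DMSO replicate 3, with a detection p of 0.0584, was the member value nearest to the DMSO limit. The bounds were at least 2.71-fold over DMSO and at least 2.73-fold over GSK126.

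ADH1A and MB encode an enzyme and an oxygen carrier. ADH1A is the alpha subunit of class I alcohol dehydrogenase, which oxidises ethanol and retinol and is known from liver. It read 8.11, 8.05 and 8.72 on ARID1A arrays, 6.48, 6.91 and 6.06 on GSK126 arrays, and 6.06, 6.29 and 6.08 on DMSO arrays. GSK126 replicate 2, with a detection p of 0.0325, was above the floor, and replicate 3 was near the lowest DMSO value. The level with ARID1A was at least 2.89-fold that in DMSO and at least 2.79-fold that with GSK126, which was measured on 1 of 3 arrays.

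MB encodes myoglobin, the oxygen-binding haem protein of heart and skeletal muscle. Its chosen probe ILMN_1666109 read 7.71, 7.61 and 9.11 on ARID1A arrays, 6.08, 5.92 and 6.01 on GSK126 arrays, and 6.24, 6.34 and 6.36 on DMSO arrays. ARID1A replicate 3 stood well apart from the other two, which gave MB the widest spread of the set in that group (SD 0.84, n = 3), and all 3 GSK126 values were below all 3 DMSO values. The bounds were at least 2.60-fold over DMSO and at least 2.62-fold over GSK126. The other 3 probes of MB were mostly below background. ILMN_1748386 and ILMN_1766334 were above background on no array, with differences between ARID1A and DMSO of 0.13 and 0.09. ILMN_2364864 read 6.42, 6.60 and 7.82 on ARID1A arrays, 6.94, 6.00 and 6.27 on GSK126 arrays, and 6.70, 5.84 and 6.42 on DMSO arrays, above background on ARID1A replicate 3 and GSK126 replicate 1. On 1 probe of 4, the chosen one, MB was above background on all ARID1A arrays.

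DENND2A and SEMA5B act in membrane traffic and cell guidance. DENND2A encodes a DENN domain protein that activates the small GTPase Rab9. It read 8.59, 8.71 and 9.32 on ARID1A arrays, 6.17, 6.44 and 6.25 on GSK126 arrays, and 5.98, 6.26 and 6.21 on DMSO arrays. GSK126 and DMSO values overlapped, and every one of the 6 was under its array's floor. The bounds were the highest of the set, at least 4.32-fold over DMSO and at least 4.35-fold over GSK126.

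SEMA5B encodes a transmembrane semaphorin with thrombospondin repeats, of a family known for axon guidance. It read 7.89, 7.61 and 7.81 on ARID1A arrays, 5.71, 6.02 and 6.11 on GSK126 arrays, and 6.29, 5.84 and 6.02 on DMSO arrays. It had the smallest spread of the set on ARID1A arrays (SD 0.14, n = 3), and GSK126 replicate 1 was the lowest of its 9 values. The bounds were at least 2.01-fold over DMSO and at least 2.03-fold over GSK126.

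**Figure D2:**
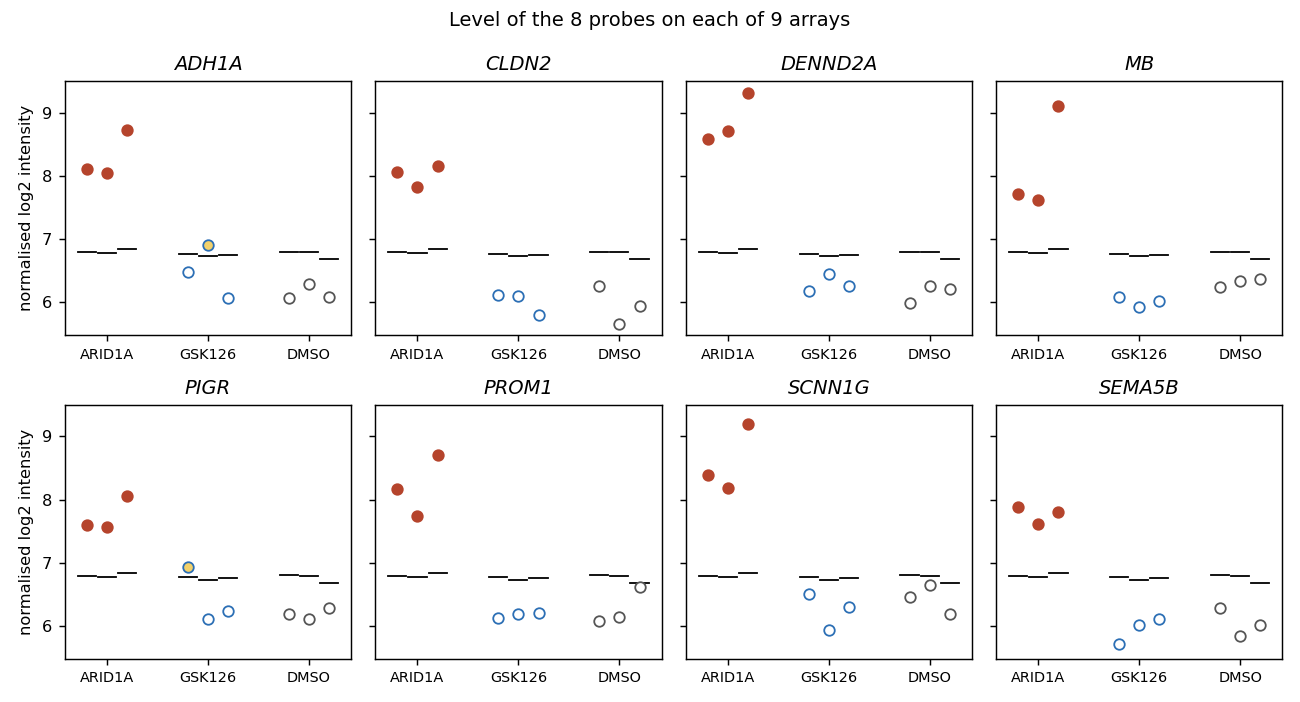
Level of each probe on the 9 arrays, with 1 panel per gene and replicates 1 to 3 from left to right within each group. The y axis is normalised log2 intensity, horizontal ticks are each array's floor, and points are filled in red for a detection p below 0.01, in yellow from 0.01 to below 0.05, and open otherwise. All ARID1A points are red, 2 GSK126 points (ADH1A and PIGR) are yellow, and all DMSO points are open.

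Across the set, ARID1A minus DMSO ran from 1.55 to 2.72 with a median of 2.00, where all 23014 probes tested had a median of −0.01. By limma with Benjamini-Hochberg adjustment, 251 probes (1.09%) were called higher and 332 (1.44%) were called in either direction in that contrast, and with batch as a replicate block 405 (1.76%) were higher and 627 were called in all. All 8 members were among those called higher in both fits, which nothing is read from, since the rule used the contrast. The 3 ARID1A arrays lay above the 3 DMSO arrays for all 8 by choice, as they did for 11.5% of probes tested. The raw intensities behind these values were modest, 434.7 to 824.6 on ARID1A arrays, 239.1 to 377.6 on GSK126 arrays and 233.9 to 342.8 on DMSO arrays.

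The size of the difference varied between batches. In batch 3 the median difference between ARID1A and DMSO was 2.43, against 1.87 in batch 1 and 1.68 in batch 2, and all 8 differences were positive in each batch. ARID1A replicate 3 was the highest ARID1A array for 7 of the 8 members (SEMA5B was highest on replicate 1), as it was for 36.9% of kept probes with 1 symbol, a count made after the values were seen. The inducible ARID1A probe ILMN_1734496 also read highest there, at 9.09 against 8.57 and 8.34 on replicates 1 and 2, and its part in the members' spread was not tested. Without ARID1A replicate 3 the differences ran from 1.36 to 2.51. The rule was also applied to 2 batches at a time, with the 6 left-out genes, ARID1A among them, kept. It then chose 20, 17 and 23 probes when batch 1, 2 or 3 was left out. In the left-out pair of arrays all of them were higher with ARID1A, by medians of 1.85, 1.76 and 2.66. The share of all probes that were higher in that pair was not computed. On the left-out DMSO array 20, 16 and 16 of the chosen probes were silent. On the left-out ARID1A array 14, 15 and 21 met the detection limit of the rule. Of all probes with 1 symbol that were silent on the left-out DMSO array, 0.468%, 0.737% and 0.345% met that limit, the chosen probes among them. Silence on the left-out DMSO array and detection on the left-out ARID1A array held together for 14 probes each time. These are the probes that met the rule on all arrays, so that number was fixed in advance and nothing is read from it.

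**Figure D3:**
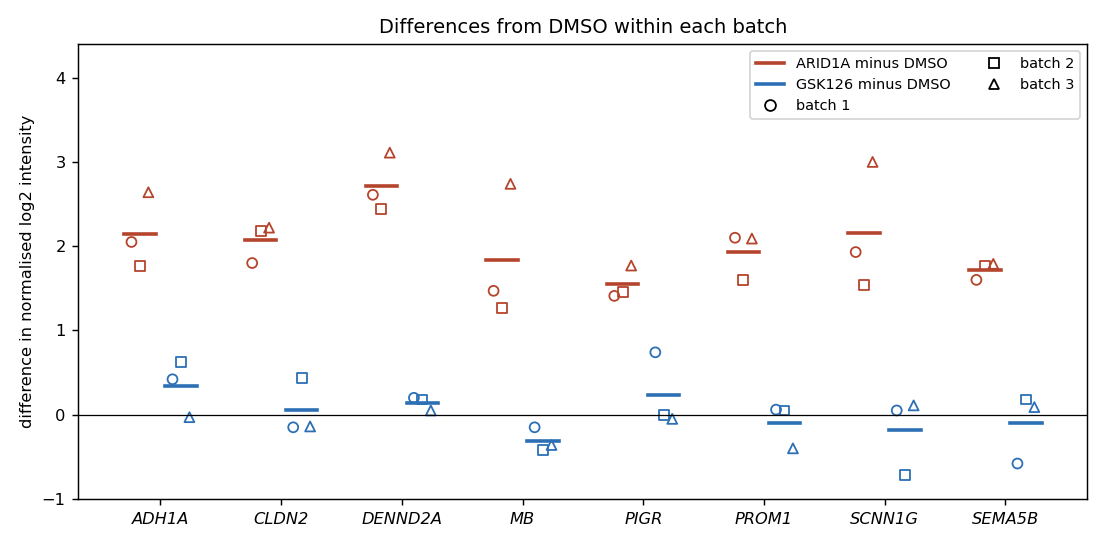
Differences from DMSO within each batch. The y axis is the difference in normalised log2 intensity, red for ARID1A minus DMSO and blue for GSK126 minus DMSO, open symbols are the 3 batches and bars the difference of the group means. Every red symbol is above 1 and the blue symbols lie on both sides of 0, from −0.72 to 0.74.

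With GSK126 the set stayed mostly below background. Of its 24 values on GSK126 arrays 2 (8.33%) had a detection p below 0.05, ADH1A on replicate 2 and PIGR on replicate 1, where 2.66% of the values of the 12537 other silent probes did. No member was above background on more than 1 GSK126 array. On at least 1 GSK126 array, 2 of the 8 members (25%) and 787 of the 12537 other silent probes (6.28%) were above background. At 0.01 there were 0 of 24, against 8 of 37611 values of the other silent probes (0.0213%). The rule turned to GSK126 in place of ARID1A found 0 probes that were silent in DMSO and detected at 0.01 on all 3 GSK126 arrays. That 0 depends on the limit. At 0.05, 38 of the 12537 other silent probes (0.303%) and 0 members were above background on all 3 GSK126 arrays. For ARID1A 58 probes met the rule at 0.05, beside the left-out genes.

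The median of GSK126 minus DMSO over the set was −0.03, and 0.01 over the other silent probes. By limma, 0 of 23014 probes (0%) were called in this contrast, 2149 had an unadjusted p below 0.05, and the authors' value table on a log2 scale gave 1 call. The 8 members were not called, with adjusted p from 0.701 for ADH1A to 0.958 for CLDN2, and their DMSO values had been chosen low. The largest differences were 0.34 (SE 0.23) for ADH1A, −0.31 (SE 0.33) for MB and 0.23 (SE 0.22) for PIGR, all between signals mostly below background, so no fold is given. For none of the 8 did all GSK126 arrays lie above all DMSO arrays, as they did for 7.89% of probes tested and 6.42% of the other silent probes. By batch the median was 0.05, 0.11 and −0.04 in batches 1, 2 and 3. A response that leaves a probe below background would not be detectable here.

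GSK126 minus ARID1A ran from −2.58 for DENND2A to −1.32 for PIGR, with a median of −2.02. By limma 295 probes (1.28%) were called in this contrast, 186 of them (0.808%) lower with GSK126, and with batch as a replicate block 523 were called, 275 of them (1.19%) lower. All 8 members were among those called lower in both fits, and their GSK126 arrays lay below all their ARID1A arrays, as for 9.97% of probes tested. The rule had chosen the ARID1A values high, so nothing is read from these counts. The narrowest gap between the lowest ARID1A array and the highest GSK126 array was 0.63, for PIGR, and the widest 2.15, for DENND2A.

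**Figure D4:**
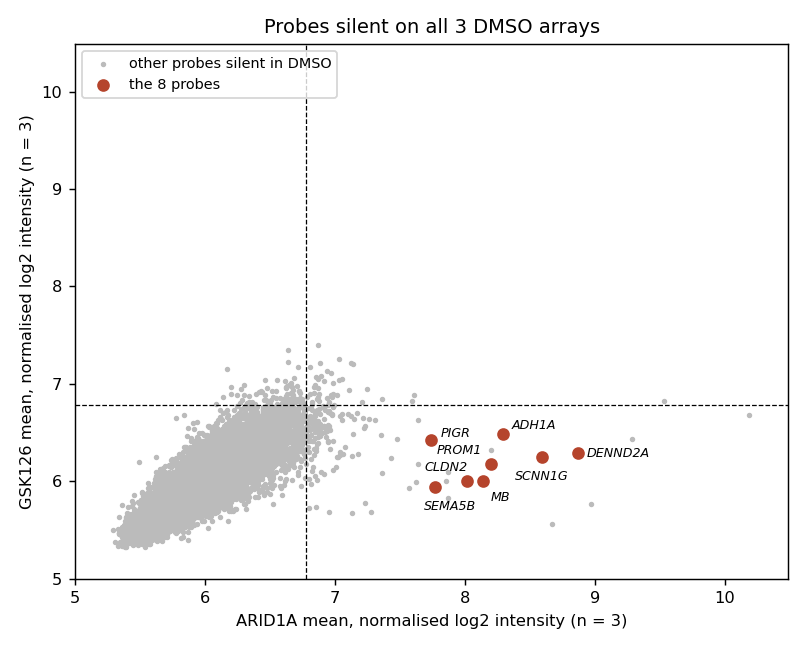
Mean level with GSK126 against mean level with ARID1A for the probes silent on all 3 DMSO arrays. Both axes are normalised log2 intensity (means of 3 arrays), grey points are the other silent probes with the left-out genes among them, and dashed lines mark the median floor of 6.78. The 8 red points lie right of the vertical line by choice and all below the horizontal line.

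Among the tested relatives of the 8 genes, ADH1C alone was called higher with them, and nothing is read from that call. The family counts below include the members, which were chosen on this contrast. No difference from the share over all genes is read from them. Families were taken by symbol after the members were known, each gene read on its brightest kept probe, and 171 of 12698 genes (1.35%) were called higher for ARID1A against DMSO on that probe. Of 4 alcohol dehydrogenases tested, 2 rose, ADH1A itself and ADH1C, the class I gamma subunit. ADH1C read 7.42, 7.72 and 8.46 on ARID1A arrays, 5.88, 6.46 and 5.93 on GSK126 arrays, and 5.95, 6.03 and 5.81 on DMSO arrays. Its ARID1A level was at least 2.15-fold the DMSO level (difference 1.94, SE 0.25, limma adjusted p = 0.0102). ADH1C missed the rule with a detection p of 0.013 on ARID1A replicate 1. A probe was tested if it was above background on 3 or more arrays. ADH1C was so on the 3 ARID1A arrays alone and entered the test only through the group where it was high. ADH1A and ADH1C are closely similar genes, and whether the array tells their transcripts apart was not tested. ADH1B, the beta subunit, was above background on no array, and ADH5, the class III enzyme of formaldehyde removal, differed by −0.15 (SE 0.14).

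Of 17 claudins tested, CLDN2 alone was called. CLDN7, an abundant claudin of simple epithelium, differed by 0.30 (SE 0.09, limma adjusted p = 0.161), CLDN4 by 0.46 (SE 0.34) and CLDN1 by −0.28 (SE 0.14). Among the sodium channel subunits SCNN1A, the pore-forming alpha subunit, was above background on every array and differed by 0.29 (SE 0.10, limma adjusted p = 0.175), and SCNN1B, the beta subunit, was above background on no ARID1A array. PROM2, the other prominin, differed by 0.03 (SE 0.10). SEMA5B was the one gene called of 16 semaphorins tested, and DENND2A of 14 DENN domain genes. JCHAIN, the chain that joins polymeric IgA, and FCAMR were above background on no array and were not tested. Of 6 globins tested MB alone was called higher, and 2 were lower with batch as a replicate block.

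Of 16 gene lists written with earlier results of these data known, 3 held a member. In epithelial ion and water transport 4 of 17 tested genes rose and 0 fell (median 0.03, against −0.00 over all genes). The replicate block left 3 that rose and 0 that fell. Over all genes 1.35% were called higher, and no difference from that share is read, since earlier results were known. The genes that rose were SCNN1G, the carbonic anhydrase CA12, the potassium channel KCNN4 at 1.07 (SE 0.20, limma adjusted p = 0.0395, and 0.0565 with the replicate block) and the proton pump subunit ATP6V1B1 at 0.67 (SE 0.13, limma adjusted p = 0.0492). Among the genes not called, the largest differences were −0.93 for ATP12A, −0.68 for CA2, −0.53 for CFTR, 0.50 for SLC4A4 and −0.46 for ANO1. SCNN1G and CA12, and PIGR of the secretory list, met the detection rule on these arrays, so nothing is read from their part of the counts. The call of KCNN4 was lost without any 1 array other than ARID1A replicate 2 (limma adjusted p up to 0.125 over its alternatives), and that of ATP6V1B1 without any 1 array other than DMSO replicate 3 (up to 0.167). In secretory epithelium 1 of 8 rose, PIGR, and with the replicate block also OLFM4, a secreted glycoprotein, at 2.66 (SE 0.56, limma adjusted p = 0.0585, and 0.00742 with the block). The third list paired DENND2A with VWF, which were picked from these samples and both called. For GSK126 against DMSO 0 members of the 3 lists were called.

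The nearest tested gene on each side of the 8 genes in the RefSeq annotation was also read, a choice made after the members were known. Genes that were not tested can lie between a member and its neighbour. Of these 16 neighbours 2 rose and 0 fell, with a median difference of 0.12, where 1.35% of all genes were called higher. ADH1C, the nearest tested gene on 1 side of ADH1A, was described above, where nothing is read from its call. Whether its signal is separate from that of ADH1A was not tested. Nothing about neighbours in general is read from the count. C1orf116, the nearest tested gene at the higher coordinate of PIGR, rose by 0.88 (SE 0.14, limma adjusted p = 0.0236) on its brightest probe ILMN_1706483. That probe read 12.54, 12.29 and 12.67 on ARID1A arrays, 11.46, 11.74 and 11.91 on GSK126 arrays, and 11.52, 11.64 and 11.68 on DMSO arrays. The call was lost without any 1 DMSO array and without ARID1A replicate 1 or 3 (limma adjusted p up to 0.104 over its alternatives). The other 2 probes of C1orf116 differed by 1.11 (SE 0.19) and 1.34 (SE 0.26), and the dimmer of them was also the probe just outside the ARID1A limit of the rule. Neighbours that did not pass included IL10 at −0.14 (SE 0.11) on the other side of PIGR, FGFBP1 beside PROM1 at −0.56 (SE 0.19, limma adjusted p = 0.183) and TBC1D8B beside CLDN2 at 0.44 (SE 0.17, limma adjusted p = 0.258).

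**Figure D5:**
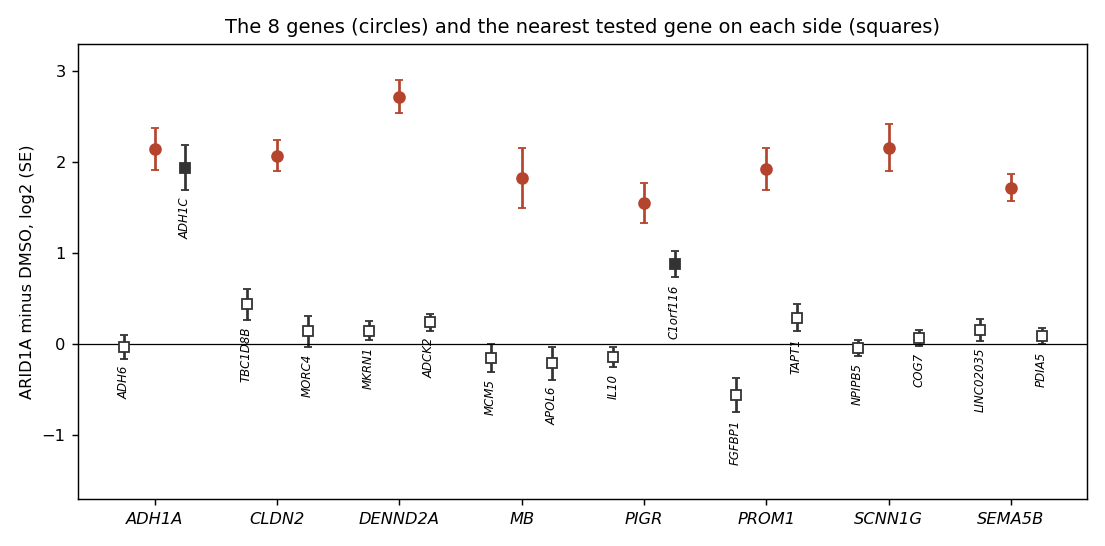
Difference between ARID1A and DMSO for the 8 genes and their neighbours. The y axis is the log2 difference with its standard error (SE, 3 arrays against 3), circles are the 8 genes, squares the nearest tested gene at the lower (left) and higher (right) coordinate, and filled squares passed limma's adjusted threshold. ADH1C and C1orf116 are the 2 filled squares.

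The set has soft edges. Just inside the DMSO limit of 0.05 lay PROM1, SCNN1G and MB, whose lowest DMSO detection p was 0.0584, 0.061 and 0.135. Just outside were GUCA2A (0.0468), which encodes the intestinal hormone guanylin, the urothelial plaque gene UPK2 (0.0403) and the histone gene H4C5 (0.0377). Just inside the ARID1A limit of 0.01 were PIGR, MB and PROM1, with a highest ARID1A detection p of 0.00779, 0.00649 and 0.00649. Just outside, each at 0.0117, were C1orf116, the adhesion receptor gene ADGRV1 and the small heat shock protein gene HSPB8. With 0.05 as the ARID1A limit 58 probes met the rule, 5 of them with a detection p below 0.05 on all 3 GSK126 arrays, and with 0.10 as the DMSO limit 6 of the 8 remained. The rule turned round, silent with ARID1A and detected in DMSO, was met by 2 probes.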

How the data were processed

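RNA of 9 OVISE samples was hybridised to an Illumina array, and groups, replicates and batches came from the labels. Per the submitters' processing notes GenomeStudio was used. The authors deposited linear intensity per probe before normalisation, with a detection p-value beside each, and a second table of quantile normalised intensity, which served as an alternative.

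The analysis used limma 3.58.1 under R 4.3.3. The function neqc (normexp from the detection p, offset 16, quantile) put the deposited values on a log2 scale. Kept were 23014 probes above background (p below 0.05) on 3 or more arrays. One model of 3 group means over all 9 arrays was fitted by lmFit and eBayes, leaving 6 residual degrees of freedom, or 4 with batch as a block. Tests were two-sided, adjusted by Benjamini-Hochberg over all kept probes, at 0.05. Batches 1 to 3 of the labels pair the samples. The residuals of 9 same-batch pairs correlated at 0.072 to 0.247, and those of 18 other pairs at −0.168 to 0.027.

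Symbols came from the platform annotation, and for 30074 probes the symbol was read from RefSeq (GRCh38.p14) through the gene identifier. How many symbols this changed was not counted. The annotation lists no gene for 17202 probes and several for 8, and 0 of these met the detection limits. Promoter windows are RefSeq's. Values in every array were given for all members, and other genes were named as probes next to each limit, other probes, relatives, neighbours or list members. The members and lists were chosen with earlier results of these data known. Alternatives were the block, the offset, the authors' table, no filter on dim probes, 1 probe per gene, other limits and each array left out.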

Additional observations from a re-analysis of the deposited data

How the results depend on the processing

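For ARID1A against DMSO the count of 332 was 627 with the replicate block, 737 from the authors' table and 178 with no filter on dim probes, and between 60 (without ARID1A replicate 3) and 286 (without GSK126 replicate 1) with 1 array left out. For GSK126 against ARID1A the count of 295 was 523 with the replicate block, 731 from the authors' table, 144 with no filter, and 54 (without ARID1A replicate 3) to 179 (without DMSO replicate 1) with 1 array left out. For GSK126 against DMSO it was 0 in each fit, the replicate block included, except 1 from the authors' table. The causes were not tested.

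The median of ARID1A minus DMSO over the members, 2.00, was 1.58 with an offset of 50 and 0.89 from the authors' table, which keeps the background in every value. That of GSK126 minus ARID1A, −2.02, was −0.89 from the authors' table. GSK126 minus DMSO, −0.03, was −0.09 (without DMSO replicate 2) to 0.05 (without DMSO replicate 3) with 1 array left out, and no member was called in that contrast under any setting. Of the members called for ARID1A against DMSO, MB lost its call without any 1 DMSO or GSK126 array (limma adjusted p up to 0.131) and PIGR without DMSO replicate 1 or 2 or ARID1A replicate 3 (up to 0.0666); for GSK126 against ARID1A, MB lost it without any 1 GSK126 array (up to 0.0781) and PIGR in 6 settings (up to 0.112). With an ARID1A array left out, 2 of the 8 members still had 3 detected arrays and were tested, which follows from the filter. With 1 batch left out, 11 to 17 probes beside the left-out genes met the rule, and with 0.05 as the ARID1A limit 58. The median CpG observed over expected, 0.232, was 0.24 over the bases before the start and 0.288 over every listed start, an alternative added after seeing the data.

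Signals close to background limit the set: a change that leaves a probe below its array's floor is not seen, and 3 arrays a group limit the precision.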
